A study of Homo sapiens with 6 samples.

Results

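A set of 10 genes of chromosome structure and DNA topology, SMC1A, SMC3, RAD21, STAG1 and STAG2 of cohesin, SMC2 and SMC4 of condensin, and the topoisomerases TOP1, TOP2A and TOP2B, were followed by their symbols in a gene expression table of 18936 genes. All 10 were found, each with 1 row, and all 10 were among the 15120 genes with enough reads to be tested. The table compared UC3DDP, a chemoresistant subline (3 libraries), with UC3, the human bladder carcinoma line UM-UC-3 from which it was raised (3 libraries). Per the methods of the study, the subline (called UC3-R there) came from about a year of cycles in rising gemcitabine and cisplatin, each followed by recovery in drug-free medium, and both lines grew in the same medium without antibiotics. UC3DDP is 1 resistant population of 1 parental line, the methods do not state whether its RNA was taken on or off drug, and no label says that the libraries of a line came from separate cultures. The methods say in general that experiments were repeated independently, without naming the sequencing libraries, so p-values measure only how far these libraries differ, and that spread may be technical.

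Cohesin is a ring of the long ATPases SMC1A and SMC3, closed by RAD21, to which 1 of the alternative subunits STAG1 or STAG2 binds; it holds sister chromatids together from replication to anaphase and extrudes the chromatin loops of interphase. Condensin is built on the related ATPases SMC2 and SMC4 and compacts chromosomes in mitosis. Topoisomerase I, encoded by TOP1, relaxes supercoils by cutting 1 strand, whereas the type II enzymes of TOP2A, made mainly in cycling cells, and TOP2B, made in cycling and resting cells alike, pass 1 duplex through a break in another.

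Counts are given as CPM, scaled to library size with the trimmed-mean (TMM) factors of edgeR, and levels of different genes as RPKM, which is CPM per kilobase of the exon length in the table. A gene was called when edgeR's quasi-likelihood test gave a Benjamini-Hochberg adjusted p under 0.05 over all 15120 genes and the log2 fold change, UC3DDP over UC3, was past 1 in either direction. Since RNA was taken from whole cultures and scaled to the library total, fewer cells of a type and less RNA per cell cannot be told apart.

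Total counts were 16757610 to 17254683 per UC3DDP library and 19467228 to 20803970 per UC3 library. UC3DDP replicate 1 stood apart from its group. The chi-square per degree of freedom between its counts and those of UC3DDP replicates 2 and 3 was 24.1 and 14.3, against 3.69 between replicates 2 and 3, and 1.49 to 1.89 among the UC3 libraries. CDH1, the epithelial cadherin, had 159 counts in UC3DDP replicate 1 and 0 in every other library of both lines. The summed level of 4 fibroblast markers, all in the table, was 5.57 to 11.4 CPM in UC3DDP and 1.19 to 1.55 CPM in UC3, and that of 4 endothelial markers 2.31 to 8.07 CPM in UC3DDP and 0.103 to 0.496 CPM in UC3, with the highest sum of both lists in UC3DDP replicate 1. Of 14 urothelial markers 10 were in the table, but KRT5, KRT20, UPK1B and UPK3A were not among its rows. Those 10 summed to 348 to 442 CPM in UC3DDP and 224 to 232 CPM in UC3. Most of that sum came from the keratins KRT18 (289 CPM in UC3DDP, 152 CPM in UC3) and KRT8 (61.8 and 54.3 CPM). Near the floor were UPK1A (0.334 CPM in UC3DDP, 0.285 CPM in UC3), UPK2 (0.433 and 0.431 CPM) and GATA3 (1.55 and 0.795 CPM). Of 5 leukocyte markers only CD14 was in the table, at 0.174 to 0.475 CPM in UC3DDP and 0.0961 to 0.103 CPM in UC3, and none of 6 retina markers was. The part of these markers in the results was not tested beyond leaving out UC3DDP replicate 1.

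The 4 SMC genes encode proteins that all hold ATP in the same kind of pocket, and the coding bases of that pocket show how each of the 4 genes spells it. The stretches below are 60 coding bases of the canonical GENCODE release 44 transcript, 5′ to 3′, with the 8 codons of the ATP-binding (Walker A) loop in capitals. They are coding bases 76 to 135 of SMC1A (chrX:53374149-53422728, minus strand, GRCh38), SMC3 (chr10:110567695-110606048, plus strand) and SMC2 (chr9:104094260-104141419, plus strand), and coding bases 319 to 378 of SMC4 (chr3:160399274-160434954, plus strand).
SMC1A: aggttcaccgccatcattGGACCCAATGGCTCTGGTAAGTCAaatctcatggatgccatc
SMC3: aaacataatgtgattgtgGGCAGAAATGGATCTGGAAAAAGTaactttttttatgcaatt
SMC2: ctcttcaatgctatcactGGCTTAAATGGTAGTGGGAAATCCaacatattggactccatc
SMC4: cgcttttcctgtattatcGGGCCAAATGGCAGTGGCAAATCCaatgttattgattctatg
Of these 60 bases 50% are G or C in SMC1A, 30.0% in SMC3, 41.7% in SMC2 and 41.7% in SMC4. Within the 8 codons of the loop, 3 end in G or C in SMC1A, 1 in SMC3, 3 in SMC2 and 4 in SMC4, so that SMC1A does not stand out there. Over the whole coding sequence 64.8% of the third codon positions of SMC1A were G or C, against 35.3% in SMC3, 33.8% in SMC2 and 30.1% in SMC4, and a median of 58.2% over 12177 tested genes with a coding sequence. Base composition is shown here because fold changes in this table followed it, as described below.

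In total, 9 of the 10 genes fell in UC3DDP and none rose. These 9 of 10 genes were called lower, against 23.1% of all tested genes, and 0 of 10 were called higher, against 17.6%. All 10 were also lower at an unadjusted p under 0.05, for which no share over all tested genes was counted. Without the fold limit, 6038 of the 15120 tested genes were lower at an adjusted p under 0.05 in edgeR. DESeq2 and limma voom both called 9 of the 10 lower and 0 higher. Over all genes DESeq2 called 3893 lower and 3034 higher, and limma voom 3508 lower and 2650 higher. The 3 UC3DDP libraries lay below the 3 UC3 libraries for 10 of 10 genes, which 41.6% of all tested genes did as well. The median log2 fold change of the 10 genes was -2.38, beside 0.02 over all tested genes. Within UC3DDP, replicate 1 was the lowest library for 10 of 10 genes, with a median log2 difference of -0.72 from the mean of replicates 2 and 3, whereas over all tested genes replicate 1 was the lowest for 42.3% and the median difference was 0.01. Without UC3DDP replicate 1 the same 9 genes were called lower, and the log2 fold changes of the 10 genes ran from -3.51 (STAG2) to -0.24 (SMC1A).

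**Figure D1:**
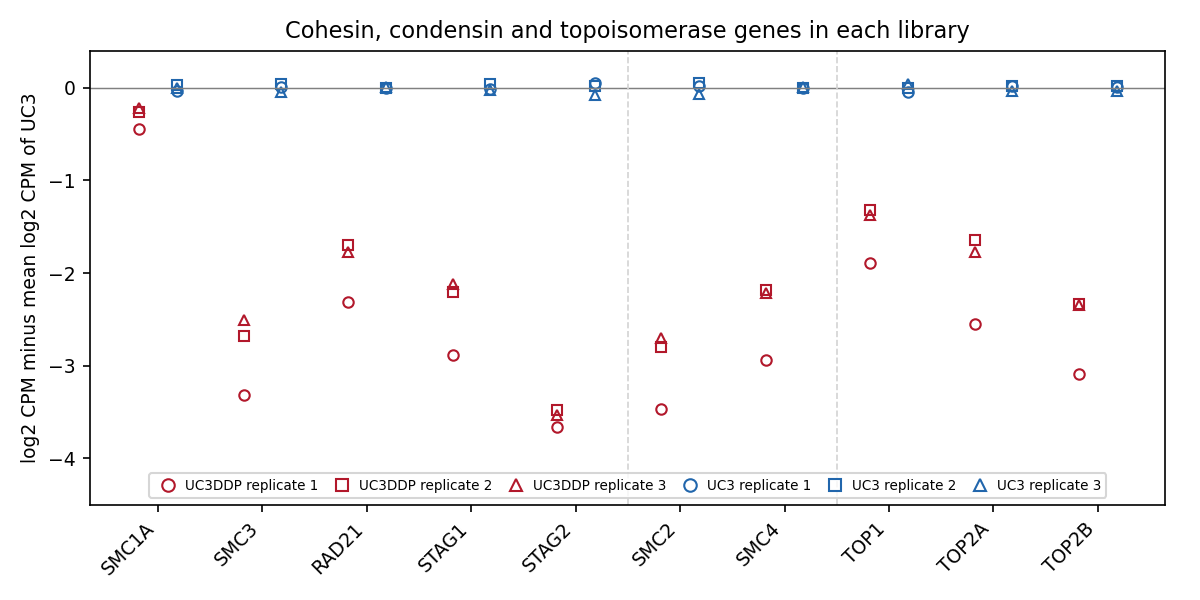
Log2 CPM of each gene in each library minus the mean of the 3 UC3 libraries, with UC3DDP in red left of UC3 in blue, 1 symbol per replicate number and dashed lines between cohesin, condensin and topoisomerase genes. UC3DDP libraries lie below all UC3 libraries for each of the 10 genes, UC3DDP replicate 1 is the lowest point in every column, and SMC1A shows the smallest gap.

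Among the cohesin genes, the partners of the SMC dimer differed most. SMC3 had 28.1, 43.6 and 49.1 CPM in UC3DDP replicates 1 to 3, against 280.15, 287 and 272 CPM in UC3. SMC1A had 110, 124 and 129 CPM in UC3DDP, against 146, 153 and 149 CPM in UC3. Every UC3DDP library was thus below every UC3 library for both genes, but by a wide gap for SMC3 and a narrow one for SMC1A. SMC3 fell with a log2 fold change of -2.80 ± 0.18 (SE, adjusted p = 1.0e-06), to 14.4% of its UC3 mean. SMC1A had a log2 fold change of -0.30 ± 0.08 (adjusted p = 0.0062), short of the limit on the fold change, and stood at 81.0% of its UC3 mean.

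Per kilobase, the ratio of SMC1A to SMC3 was 2.22, 1.62 and 1.49 in the 3 UC3DDP libraries and 0.296, 0.303 and 0.312 in the 3 UC3 libraries. SMC3 transcripts thus exceeded those of SMC1A in each UC3 library, and SMC1A transcripts exceeded those of SMC3 in each UC3DDP library. The mean log2 ratio of counts differed by 2.53 (two-sided exact permutation p = 0.10, the smallest that 3 against 3 libraries allow). With the offset for GC content and length described below it differed by 1.42. The ratios per kilobase carry no such offset, while the transcript of SMC1A had 47.0% GC and that of SMC3 37.3%. Which of the 2 genes is higher in UC3DDP was not examined with the offset. The per-length ratio depends on the transcript assumed, since the exon length in the table is that of the canonical transcript for all 10 genes. With coding lengths in place of exon lengths the geometric mean ratio was 3.04 in UC3DDP and 0.527 in UC3.

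RAD21 (chr8:116845934-116874776, minus strand), the kleisin that closes the ring and is cut by separase at anaphase, had 155, 239 and 226 CPM in UC3DDP, against 771, 769.8 and 778 CPM in UC3. The groups were far apart, and the spread was much wider among UC3DDP libraries than among those of UC3. RAD21 fell with a log2 fold change of -1.90 ± 0.14 (adjusted p = 2.6e-06), or 3.74-fold. UTP23, a gene of ribosome biogenesis on the opposite strand, shares 576 exon bases with RAD21. The methods name no strand setting of the counting, so the reads of those bases cannot be told apart. UTP23 was at 14.1 CPM in UC3DDP and 47.4 CPM in UC3. The processed copy RAD21P1, which has no row in the table, matches 51.5% of the RAD21 transcript at 93.1% identity in its best alignment. SMC3P1 matches 13.3% of the SMC3 transcript (98.6% identity) and TOP1P1 17.65% of that of TOP1 (96.8%), and both have rows. Reads that fit a gene and its copy may have been counted to either or dropped.

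STAG1 (chr3:136336236-136752403, minus strand) and STAG2 (chrX:123960212-124422664, plus strand) encode the alternative outer subunits. STAG2, whose gene is recurrently mutated in bladder carcinoma, had 3.68, 4.19 and 4.03 CPM in UC3DDP, against 48.9, 47.8 and 44.6 CPM in UC3. It showed the lowest level per length of the 10 genes in both lines and the largest fold change among them. STAG2 fell with a log2 fold change of -3.57 ± 0.09 (adjusted p = 1.6e-08), to 8.42% of its UC3 mean, and the counts behind it were 62, 72 and 68 in UC3DDP and 985, 925 and 929 in UC3. The 3 UC3DDP libraries lay close together for STAG2, unlike the other called genes of the group. On the opposite strand, TENM1 shares 241 exon bases with STAG2 and was at 0 CPM in UC3DDP and 1.87 CPM in UC3. STAG2-AS1 shares 28 such bases and was at 0.572 CPM in UC3DDP and 0.195 CPM in UC3. Counts alone do not show which bases of STAG2 were read, so no statement on its sequence can be made.

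STAG1 had 18.1, 29.1 and 30.7 CPM in UC3DDP, against 133, 137 and 131 CPM in UC3, and fell with a log2 fold change of -2.36 ± 0.17 (adjusted p = 1.9e-06). Both paralogs were therefore lower, STAG2 by more. STAG2 made up 16.6%, 12.4% and 11.4% of the summed STAG1 and STAG2 level per length in UC3DDP, against 26.6%, 25.5% and 25.01% in UC3. The mean log2 ratio of STAG1 to STAG2 counts differed by 1.16 (exact permutation p = 0.10, the smallest possible), and by 0.69 with the offset for GC content and length described below. PCCB, a mitochondrial carboxylase subunit encoded on the opposite strand, shares 1661 exon bases with STAG1 and was at 123 CPM in UC3DDP and 73.7 CPM in UC3, a difference of the opposite sign.

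**Figure D2:**
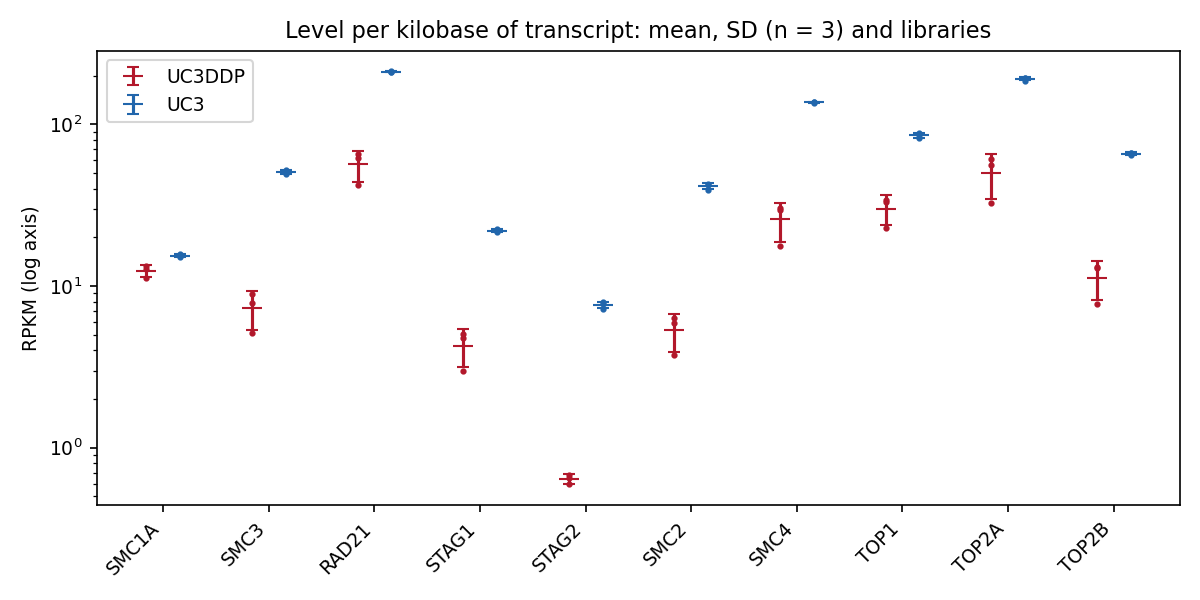
RPKM of the 10 genes on a log axis, with the mean (long tick), SD over 3 libraries (bars) and the single libraries (dots), UC3DDP in red left of UC3 in blue. RAD21 and TOP2A have the highest levels and STAG2 the lowest in both lines, and SMC1A is the gene whose levels in the lines lie nearest to each other.

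The condensin ATPases fell together. SMC2 had 22.1, 35.1 and 37.7 CPM in UC3DDP, against 248, 254 and 233 CPM in UC3, and SMC4 had 91.0, 154 and 151 CPM in UC3DDP, against 696, 699.99 and 703 CPM in UC3. Neither gene had overlapping groups. The log2 fold change was -2.95 ± 0.17 for SMC2 (adjusted p = 7.7e-07) and -2.41 ± 0.18 for SMC4 (adjusted p = 2.3e-06). Per length, SMC2 stood at 0.210, 0.197 and 0.216 of SMC4 in UC3DDP and at 0.308, 0.313 and 0.287 in UC3, and the mean log2 ratio differed by -0.54 (exact permutation p = 0.10, the smallest possible). TRIM59, with 1553 exon bases on the opposite strand of SMC4, was at 2.46 CPM in UC3DDP and 11.1 CPM in UC3, and IFT80, with 243 such bases, at 8.09 CPM in UC3DDP and 45.3 CPM in UC3.

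Across complexes, the ratio of SMC4 to SMC3 per length was 3.49, 3.82 and 3.32 in UC3DDP and 2.68, 2.64 and 2.79 in UC3, a log2 difference of 0.39 (exact permutation p = 0.10, the smallest possible). In all, 5 such ratios were compared, and the Benjamini-Hochberg adjusted p was 0.10 for each.

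Fold changes of the other condensin genes ran in both directions, as they did over all tested genes. Among 7 genes of the condensin non-SMC subunits and their regulator MCPH1, 1 was called lower and 0 higher, and the median log2 fold change was 0.06. The shares over all tested genes were 23.1% lower and 17.6% higher. At an unadjusted p under 0.05, 3 were higher and 3 lower, for which no share over all tested genes was counted. Without the fold limit, 6134 of the 15120 tested genes were higher and 6038 lower at an adjusted p under 0.05 in edgeR. DESeq2 and limma voom each called 1 lower and 0 higher. The count of lower genes was 2 without UC3DDP replicate 2 or 3 or UC3 replicate 2 or 3, and 0 with the offset for GC content described below. The median log2 fold change with that offset was -0.12. The called gene was NCAPG, a HEAT-repeat subunit of condensin I, at 39.2 ± 9.94 CPM in UC3DDP and 162 ± 2.76 CPM in UC3 (SD, n = 3 each), with a log2 fold change of -2.04 (adjusted p = 3.8e-06), which was -0.94 and no longer called with that offset. The remaining subunits are named for completeness, after their values were seen. NCAPD2, the most abundant of them in CPM, was at 1142 ± 62.6 CPM in UC3DDP and 697 ± 12.5 CPM in UC3 (log2 fold change 0.71), and the kleisin NCAPH had a log2 fold change of 0.26. For condensin II the values were 0.06 for NCAPD3, -0.55 for NCAPG2 and 0.66 for the kleisin NCAPH2, and MCPH1 had -0.98. SMC2 and SMC4 thus had lower fold changes than every non-SMC subunit measured, but whether that difference is larger than differences between other partners was not tested.

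TOP1 (chr20:41028822-41124487, plus strand), the target of camptothecins, had 85.6, 128 and 123 CPM in UC3DDP, against 308, 319 and 329 CPM in UC3. TOP2A (chr17:40388525-40417896, minus strand), a target of anthracyclines and etoposide, had 185, 349 and 318 CPM in UC3DDP, against 1102, 1102 and 1061 CPM in UC3. TOP2B (chr3:25597984-25664907, minus strand) had 45.1, 76.1 and 75.4 CPM in UC3DDP, against 385, 389 and 375 CPM in UC3. All 3 were lower in every UC3DDP library, with UC3DDP replicate 1 below replicates 2 and 3 each time. The log2 fold change was -1.505 ± 0.14 for TOP1 (adjusted p = 8.5e-06), -1.94 ± 0.20 for TOP2A (adjusted p = 1.6e-05) and -2.55 ± 0.18 for TOP2B (adjusted p = 1.8e-06). PLCG1-AS1, on the opposite strand, shares 204 exon bases with TOP1 and was at 0.512 CPM in UC3DDP and 1.16 CPM in UC3. A short RNA gene on the same strand shares 181 exon bases with TOP2B and was at 0.0198 CPM in UC3DDP and 0.229 CPM in UC3.

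TOP2A made up 80.8%, 82.4% and 81.2% of the summed TOP2A and TOP2B level per length in UC3DDP, against 74.5%, 74.3% and 74.3% in UC3. The 2 sets did not overlap. The mean log2 ratio of counts differed by 0.60 (exact permutation p = 0.10, the smallest possible), and by 1.05 with the GC and length offset. The value of 1.05 used the canonical transcripts. With GC content from the longest transcripts the log2 fold changes were -0.87 for TOP2A and -1.14 for TOP2B. These lie closer together than without the offset, so whether the offset widens the difference depends on the transcript used. TOP2A was the majority transcript of the pair in both lines.

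The sequences before the start sites of the paralogous pair TOP2A and TOP2B are shown because both genes were called lower while their regulation in the cell cycle differs. Each is 250 bases before the RefSeq start (GRCh38.p14), read 5′ to 3′ along the gene, at chr17:40417897-40418146 and chr3:25664908-25665157, both on the minus strand. Capitals mark 3 motifs on either strand, the CCAAT box (CCAAT), the cell cycle homology region (TTTGAA or TTCGAA) and the GC box (GGGCGG).
TOP2A: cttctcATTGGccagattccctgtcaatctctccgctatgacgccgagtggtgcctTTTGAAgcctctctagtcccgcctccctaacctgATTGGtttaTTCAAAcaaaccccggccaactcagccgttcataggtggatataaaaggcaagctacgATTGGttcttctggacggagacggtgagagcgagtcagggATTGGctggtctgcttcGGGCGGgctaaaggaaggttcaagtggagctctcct
TOP2B: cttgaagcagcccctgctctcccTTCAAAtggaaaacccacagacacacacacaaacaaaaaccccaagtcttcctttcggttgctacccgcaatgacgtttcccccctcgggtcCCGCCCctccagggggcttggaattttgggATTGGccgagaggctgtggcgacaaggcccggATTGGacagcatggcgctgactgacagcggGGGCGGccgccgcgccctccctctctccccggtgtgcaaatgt
Counted in the window from 250 bases before to 50 bases after the start, TOP2A held 4 CCAAT boxes, 2 cell cycle homology regions and 1 GC box, and TOP2B held 2 CCAAT boxes, 1 cell cycle homology region and 2 GC boxes.

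The same 250 bases are shown for the SMC partners that differed most, SMC1A at chrX:53422729-53422978 on the minus strand and SMC3 at chr10:110567445-110567694 on the plus strand.
SMC1A: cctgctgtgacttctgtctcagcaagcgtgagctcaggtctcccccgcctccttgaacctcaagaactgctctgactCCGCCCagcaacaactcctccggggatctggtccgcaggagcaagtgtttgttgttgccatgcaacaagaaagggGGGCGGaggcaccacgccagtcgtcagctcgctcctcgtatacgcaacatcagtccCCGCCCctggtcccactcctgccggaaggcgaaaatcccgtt
SMC3: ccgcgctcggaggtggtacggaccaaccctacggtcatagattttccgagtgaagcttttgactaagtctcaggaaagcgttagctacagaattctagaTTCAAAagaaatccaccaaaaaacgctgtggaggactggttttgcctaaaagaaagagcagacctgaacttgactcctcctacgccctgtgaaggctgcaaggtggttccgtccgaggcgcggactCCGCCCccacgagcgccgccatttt
SMC1A held 3 GC boxes and neither of the other motifs, and SMC3 held 1 GC box and 1 cell cycle homology region. Windows were used for 9 of the 10 genes. A CCAAT box was in 4 of the 9 windows, in 34.6% of all 35116 windows and in 34.9% of the 15357 windows of tested genes. A cell cycle homology region was in 5 of 9, in 16.4% of all and in 11.8% of those of tested genes. A GC box was in 7 of 9, in 44.95% of all and in 66.0% of those of tested genes. The E2F site, searched as TTTCCCGC and then as TTTCGCGC and then as TTTGCCGC and then as TTTGGCGC on both strands, was in 1 of 9 windows, that of STAG1, in 3.31% of all and in 4.92% of those of tested genes. A match is a description of letters and not of a bound site.

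Per length, the order of levels in UC3DDP was RAD21 (56.4 ± 12.3 RPKM), TOP2A (49.9 ± 15.2), TOP1 (30.1 ± 6.22), SMC4 (25.8 ± 6.96), SMC1A (12.4 ± 1.03), TOP2B (11.3 ± 3.04), SMC3 (7.29 ± 1.97), SMC2 (5.34 ± 1.41), STAG1 (4.28 ± 1.13) and STAG2 (0.642 ± 0.0419), each as RPKM (SD, n = 3). In UC3 the order was RAD21 (211 ± 1.14 RPKM), TOP2A (191 ± 4.15), SMC4 (137 ± 0.628), TOP1 (85.4 ± 2.74), TOP2B (65.8 ± 1.28), SMC3 (50.6 ± 1.35), SMC2 (41.4 ± 1.79), STAG1 (22.0 ± 0.501), SMC1A (15.4 ± 0.344) and STAG2 (7.62 ± 0.358). SMC1A was thus in place 5 of 10 in UC3DDP and in place 9 of 10 in UC3, in levels that carry no offset for GC content. Of 9 neighbouring pairs in the order, 7 had overlapping library ranges in UC3DDP and 0 in UC3. The 2 pairs that did not overlap in UC3DDP were SMC4 with SMC1A and STAG1 with STAG2.

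Fold changes over the whole table followed the GC content of the transcript. Tested genes were split by GC content into 10 deciles. In the lowest decile (up to 38.3% GC) the median log2 fold change was -1.48 and 67.6% of genes were called lower, in the next decile -1.07 and 52.2%, and in the one after it -0.70 and 38.9%, whereas in the highest decile the median was 0.77 and 3.05% were called lower. Of the 10 genes, 9 lay in the lowest 3 deciles. The transcripts of the SMC genes other than SMC1A had 36.6% GC (SMC4), 37.3% (SMC3) and 37.4% (SMC2), and STAG2 had 36.6%. SMC1A, at 47.0%, lay in the middle of the range, in a decile whose median log2 fold change was -0.01. The trend ran in each UC3DDP library. The median log2 CPM of the lowest decile, taken against the UC3 mean of each gene, was -1.84, -1.30 and -1.35 in UC3DDP replicates 1 to 3 and 0.01, 0.01 and -0.02 in UC3.

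Within their own decile of GC content the 10 genes lay below the median, SMC1A by the least. STAG2 was at percentile 2.92 of the log2 fold changes in its decile, TOP2B at 5.24, SMC2 at 6.70, SMC3 at 9.02, STAG1 at 10.1, SMC4 at 17.04, TOP2A at 18.9, RAD21 at 19.9, TOP1 at 21.9 and SMC1A at 36.9, where a low percentile means a stronger fall. These positions are a description with no test.

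**Figure D3:**
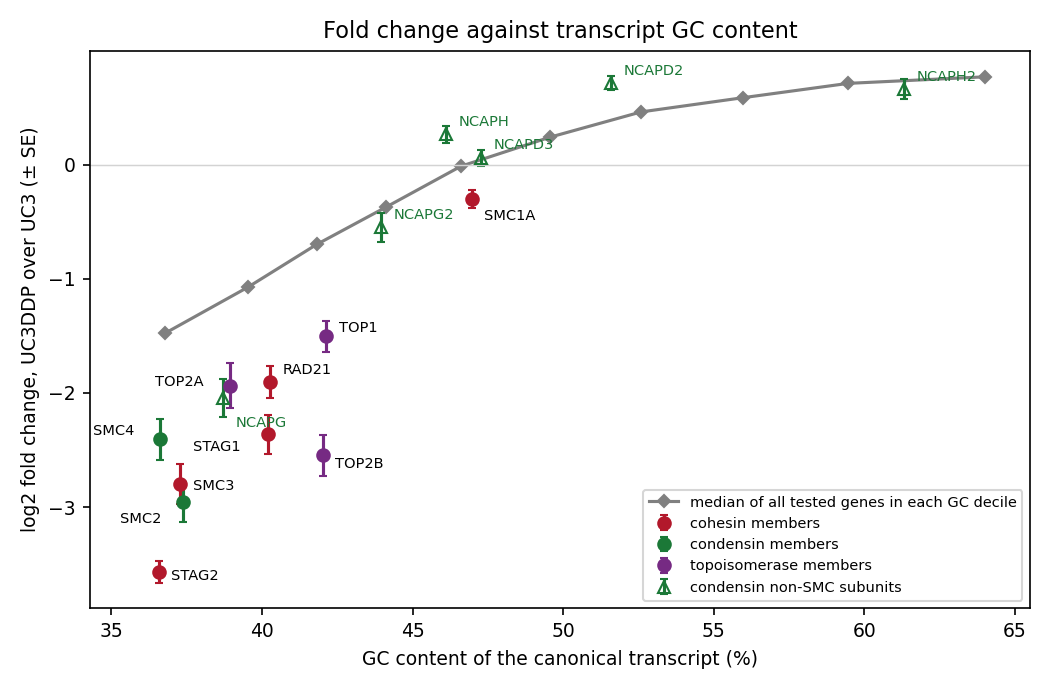
Log2 fold change (UC3DDP over UC3, ± SE) against the GC content of the canonical transcript for the 10 genes (filled, coloured by complex) and 6 condensin non-SMC subunits (open triangles), with the median of all tested genes in each decile of GC content (grey). The 10 genes lie below the grey line at their own GC content, SMC1A by the least. Of the condensin non-SMC subunits, NCAPH and NCAPD2 lie above the line, NCAPG lies well below it and the others lie nearer to it.

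When each gene and library was given an offset from the trend on GC content and exon length, 7 of the 10 genes were still called lower and 0 higher, against 14.5% and 13.2% of all tested genes. At an unadjusted p under 0.05, 9 were lower and 0 higher in this edgeR fit, and the share over all tested genes was not counted. The median log2 fold change of the 10 genes was -1.25, beside -0.03 over all tested genes. STAG2 (-2.16 ± 0.09), TOP2B (-1.88 ± 0.09), SMC2 (-1.65 ± 0.07), SMC3 (-1.51 ± 0.08), STAG1 (-1.41 ± 0.08), SMC4 (-1.08 ± 0.07) and RAD21 (-1.06 ± 0.06) kept their call, in log2 fold change with SE. TOP1 (-0.92 ± 0.07, adjusted p = 9.2e-07) and TOP2A (-0.84 ± 0.09, adjusted p = 9.0e-06) lost it because the fold change no longer passed the limit, and SMC1A stood at -0.10 ± 0.05 (adjusted p = 0.092). RAD21 depended on the transcript from which GC content was taken, with a log2 fold change of -0.59 and no call when the longest annotated transcript was used. With that transcript TOP2B stood at -1.14, against -1.88 with the canonical one, and TOP1 at -1.05, which is past the limit. With the offset the log2 ratio of SMC1A to SMC3 differed by 1.42 between the lines, against 2.53 without it.

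**Figure D4:**
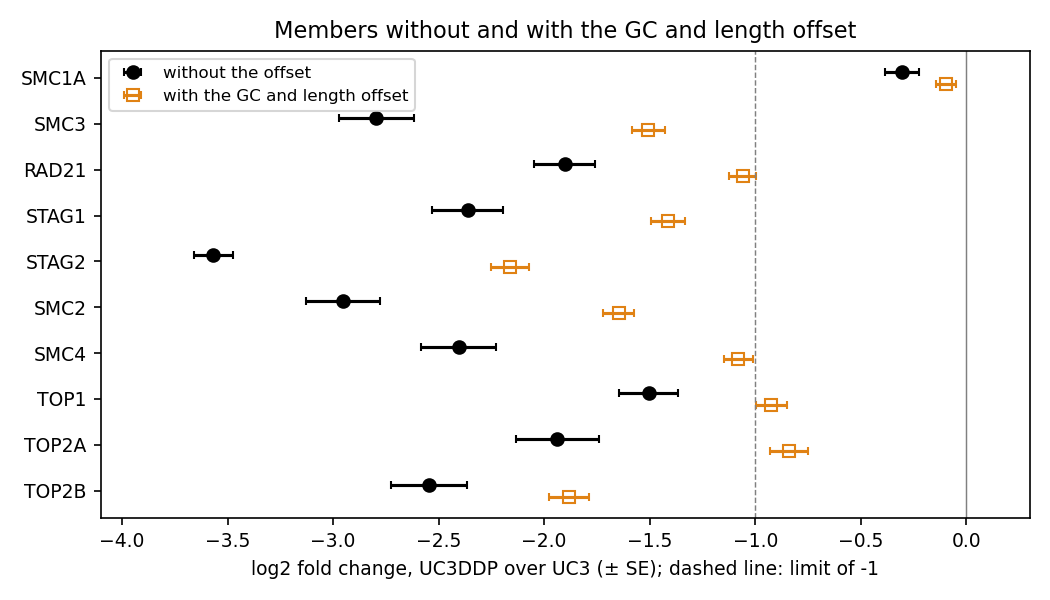
Log2 fold change (UC3DDP over UC3, ± SE) of the 10 genes without (black circles) and with (orange squares) the offset for GC content and exon length, and the fold limit of -1 as a dashed line. Every gene lies nearer to 0 with the offset, and TOP1 and TOP2A move from below the limit to above it.

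The genes that load, release and cut cohesin were lower in part. Of 15 cohesin regulators, 8 were called lower and 0 higher, with a median log2 fold change of -1.34. With the offset 7 were called lower and 0 higher, and the median was -0.98. Over all tested genes 23.1% were called lower and 17.6% higher, and 14.5% and 13.2% with the offset. Of the 8, SGO2 (34.4% GC), ESCO1 (35.7%), PDS5B (36.4%), ESCO2 (37.4%) and NIPBL (39.4%) lay in the 2 lowest GC deciles. In those deciles 67.6% and 52.2% of all genes were called lower. WAPL (40.7%), PDS5A (41.0%) and HDAC8 (47.4%) lay higher in GC content. WAPL, PDS5B and ESCO2 lost their call with the offset, and MAU2 and ESPL1 gained one. At an unadjusted p under 0.05, edgeR gave 2 higher and 12 lower, for which no share over all tested genes was counted. DESeq2 called 9 lower and 0 higher, as did limma voom. SGO2, a shugoshin that guards centromeric cohesin in meiosis, was at 18.9 ± 4.95 CPM in UC3DDP and 177 ± 4.77 CPM in UC3 (log2 fold change -3.22, adjusted p = 4.5e-07). NIPBL, the cohesin loader, was at 31.2 ± 9.44 CPM in UC3DDP and 245 ± 6.84 CPM in UC3 (-2.98, adjusted p = 1.2e-06). ESCO1, an acetyltransferase of SMC3, was at 6.34 ± 2.26 CPM in UC3DDP and 37.2 ± 1.25 CPM in UC3 (-2.55, adjusted p = 2.8e-06).

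Germline forms of cohesin stayed low in both lines. Of 4 meiotic cohesin genes 3 were in the table and 2 could be tested, and edgeR, DESeq2 and limma voom called none of them. At an unadjusted p under 0.05, 1 was higher and 1 lower, for which no share over all tested genes was counted. Their summed level was 4.54 to 5.22 CPM in UC3DDP and 4.601 to 5.04 CPM in UC3. RAD21L1, a meiotic kleisin, had the larger log2 fold change without the offset, -0.70 (adjusted p = 0.0067), but its sign turned with the offset, to 0.57 (adjusted p = 0.048).

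The SMC5/6 complex, the other SMC ATPase pair, and SMCHD1, an SMC-hinge protein of the inactive X chromosome, counted 8 tested genes, of which 4 were called lower and 0 higher (median log2 fold change -1.13). With the offset 4 were called lower and 0 higher, but SMC5 lost its call (-0.85) and NSMCE4A gained one (-1.02). The median with the offset was -0.94. The shares over all tested genes were 23.1% lower and 17.6% higher, and 14.5% and 13.2% with the offset. At an unadjusted p under 0.05, 1 was higher and 6 lower in edgeR, for which no share over all tested genes was counted. DESeq2 and limma voom called 0 higher. SMCHD1 was at 25.5 ± 6.98 CPM in UC3DDP and 250.1 ± 3.69 CPM in UC3 (log2 fold change -3.29, adjusted p = 5.3e-07). SMC6 was at 15.6 ± 4.54 CPM in UC3DDP and 118 ± 4.77 CPM in UC3 (-2.92, adjusted p = 9.1e-07), and SMC5 at 18.6 ± 5.51 CPM in UC3DDP and 87.4 ± 1.96 CPM in UC3 (-2.23, adjusted p = 4.1e-06). Of the 6 SMC ATPase genes of the 3 complexes, SMC1A was the only one not called lower without the offset, and with it SMC1A and SMC5 were not called.

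Among 10 other topoisomerases and genes that repair topoisomerase adducts, 4 were called lower and 0 higher (median log2 fold change -0.57). With the offset 2 were called lower and 0 higher, and the median was -0.30. Beside these stood 23.1% lower and 17.6% higher over all tested genes, and 14.5% and 13.2% with the offset. At an unadjusted p under 0.05, 3 were higher and 7 lower in edgeR, for which no share over all tested genes was counted. DESeq2 and limma voom each called 4 lower and 0 higher. TDRD3, a partner of topoisomerase III beta, was at 2.73 ± 0.952 CPM in UC3DDP and 28.0 ± 1.87 CPM in UC3 (-3.36, adjusted p = 5.3e-07). The helicase BLM was at 9.29 ± 2.66 CPM in UC3DDP and 37.7 ± 0.38 CPM in UC3 (-2.02, adjusted p = 3.9e-06), and its partner RMI1 at 19.8 ± 3.61 CPM in UC3DDP and 51.3 ± 1.59 CPM in UC3 (-1.37, adjusted p = 6.7e-06). RMI1 stood at 0.06 with the offset.

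Since TOP2A, the SMC genes of condensin and several cohesin regulators vary with the cell cycle, 18 proliferation markers were set beside them. Of these 18, 4 were called lower and 1 higher, with a median log2 fold change of -0.28. With the offset 1 was called lower and 1 higher, and the median was -0.35. Over all tested genes 23.1% were called lower and 17.6% higher, and 14.5% and 13.2% with the offset. MKI67, the Ki-67 antigen, was at 306 ± 73.5 CPM in UC3DDP and 853 ± 4.03 CPM in UC3 (-1.48, adjusted p = 1.6e-05), and the replication helicase subunit MCM6 at 106 ± 9.28 CPM in UC3DDP and 248 ± 6.80 CPM in UC3 (-1.23, adjusted p = 1.4e-06). BIRC5, the mitotic protein survivin, was at 349.9 ± 36.1 CPM in UC3DDP and 145 ± 5.24 CPM in UC3 (1.27, adjusted p = 1.6e-06). With the offset BIRC5 (0.84), MCM6 (-0.80), PCNA (-0.72) and BUB1 (-0.47) were not called, MKI67 kept its call (-1.29), and the 1 gene called higher was CCNB1 (1.43). Without the offset the count of lower markers was thus near the share over all tested genes, and that of higher markers was below it. Transcript GC content was 51.2% for BIRC5, against 48.3% for MKI67, 43.5% for PCNA, 43.2% for MCM6 and 42.1% for BUB1. The part of these markers in the fall of the 10 genes was not tested.

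**Figure D5:**
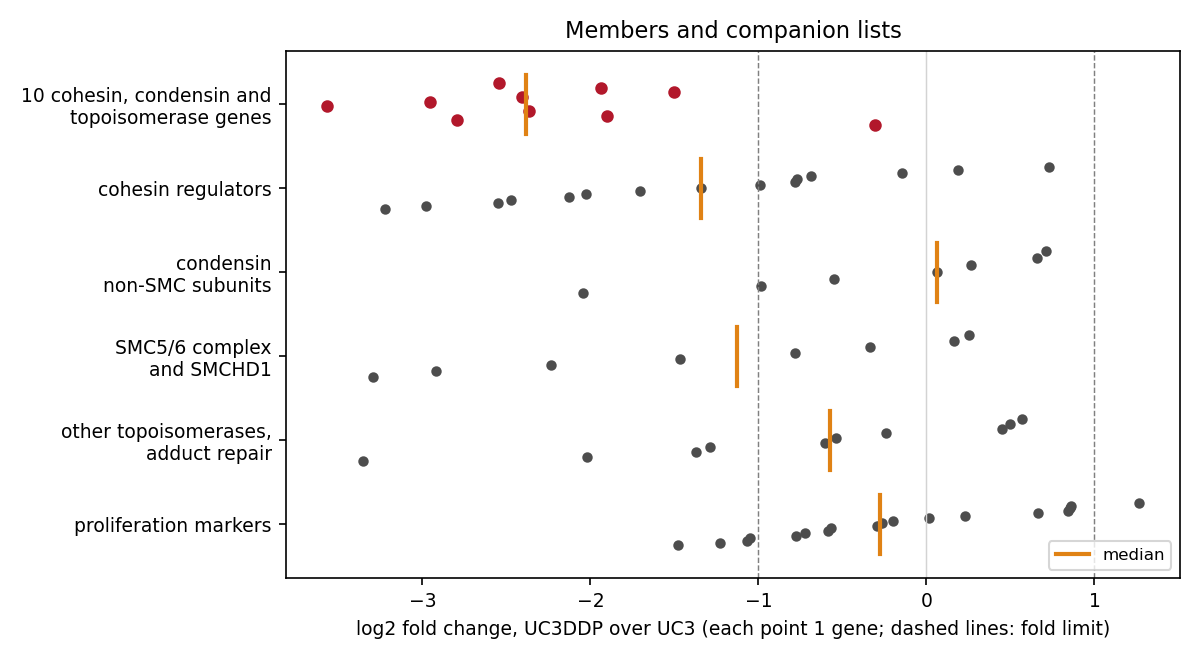
Log2 fold change (UC3DDP over UC3) of the 10 genes (red) and of the tested genes of 5 companion lists (grey), 1 point per gene, with each list's median (orange) and the fold limits of -1 and 1 (dashed). The 10 genes have a median of -2.38, the condensin non-SMC subunits one of 0.06 and the proliferation markers one of -0.28. With the offset for GC content and length, not drawn here, these medians are -1.25, -0.12 and -0.35.

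Over the 6 libraries the 10 genes lay at unlike distances from their own mean profile, on the centred log2 CPM scale. The root mean square difference ran from 0.09 for STAG1 to 0.67 for STAG2 and 0.98 for SMC1A. Between genes, STAG1 and SMC4 lay nearest to each other (0.04), followed by TOP2B and SMC4 (0.07), SMC2 and SMC3 (0.08) and RAD21 and TOP2A (0.10). STAG2 lay 0.34 from its nearest member, SMC2, and SMC1A 0.62 from TOP1. The protein-coding genes outside all lists whose profile lay nearest to the mean profile of the 10 genes, of 12116 compared, were ITPR2, CDK6, DCP2, UBLCP1 and NF1, at 0.02 to 0.03, with log2 fold changes of -2.24, -2.25, -2.23, -2.20 and -2.21 and transcript GC contents of 35.9% to 41.99%. Each of these outside genes lay nearer to that mean than any of the 10 genes did. Their like fold changes follow from choosing them by profile. All points share the same 6 libraries, and profiles of genes of like GC content follow the same trend.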

How the data were processed

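RNA sequencing of 3 UC3DDP and 3 UC3 libraries was used, grouped by the line named in the sample titles. Per the methods of the study, the authors used Fastp for trimming, HISAT2 for alignment (GRCh38) and featureCounts for the counts of each gene. The deposited values used are whole-number counts, not normalized, with a lowest total of 10 per gene over the 6 libraries, and the deposited exon length. The authors' log2 fold change, fold ratio, p-value and false discovery rate from DESeq2, held in the same table, were not used. The labels conflict: the series text names the line T24, the extraction text retinas, and the submitters' processing notes the mouse build mm9. Of 18936 gene identifiers, 18895 were found in human GENCODE release 44.

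The test was edgeR 4.0.16 (R 4.3.3, limma 3.58.1) quasi-likelihood with TMM scaling, filterByExpr (minimum count 10) and no covariate, on all 6 libraries and 15120 genes, with limits of 0.05 on the adjusted p and 1 on the absolute log2 fold change. The offset was a loess trend (span 0.3) on GC content, then log exon length. Ratios of 2 genes used counts plus 0.5 and an exact permutation test. The edgeR fit was tested on simulated counts. These had no trend on GC content, so they cannot show how the fit performs on data with that trend. Alternatives were DESeq2 1.42.0, limma voom, other scaling, no filter, no fold limit, a replicate block and leaving out each library. Transcript similarity came from BLAST 2.17.0+, and promoter windows from RefSeq.

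The 10 genes and all lists were chosen with earlier results of these data known. Named were all 10 genes, up to 3 called genes of largest fold change per companion list (at or above 1 CPM in the line where the gene was higher, or the 1 of largest fold change where none was called), and the 5 protein-coding genes of nearest profile.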

Additional observations from a re-analysis of the deposited data

How the results depend on the processing

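The count of the 10 genes called lower was 9 with limma voom, DESeq2, no filter on low counts, scaling by library totals or by DESeq2 size factors, and every library left out in turn, 10 with no limit on the fold change, and 7 in each of the 4 fits with the GC and length offset. None was called higher in any of these settings. With the longest transcript the genes not called were SMC1A, RAD21 (-0.59) and TOP2A (-0.87), and with the offset and without UC3DDP replicate 1 they were SMC1A, TOP1 (-0.85) and TOP2A (-0.74). These 2 settings, and coding lengths for the ratios per length, were chosen after seeing the data. No sign of a log2 fold change of the 10 genes turned in any setting. Correlations of deviations between same-numbered libraries were -0.04, -0.02 and 0.00. The sample titles give only a shared number, and these values cannot show whether such libraries were prepared together. With the replicate block 9 of the 10 genes were called lower and 0 higher, and 7 lower with the offset and the replicate block, with TOP1 at -0.93 and TOP2A at -0.85.

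Without the fold limit, counts of higher genes were 2 for cohesin regulators, 1 for meiotic cohesin, 3 for condensin non-SMC subunits, 1 for the SMC5/6 list, 3 for other topoisomerases, 6 for proliferation markers and 6134 over all tested genes, and counts of lower genes were 1 for meiotic cohesin, 3 for condensin non-SMC subunits, 7 for other topoisomerases, 11 for proliferation markers and 6038 over all. With the offset, lower genes numbered 0 among condensin non-SMC subunits and 2 among other topoisomerases in all 4 fits, 1 among proliferation markers (2 with the longest transcript), and over all tested genes 2197, 2199 with the replicate block, 2207 with the longest transcript and 2218 without UC3DDP replicate 1. Condensin non-SMC subunits counted 2 lower with DESeq2 size factors, and 1 to 2 with libraries left out in turn (2 without UC3DDP replicate 2 or 3 or UC3 replicate 2 or 3). With the offset on canonical transcripts the log2 ratios differed by 0.69 for STAG1 over STAG2, 1.05 for TOP2A over TOP2B and 1.42 for SMC1A over SMC3. The cause was not tested, and these ratios were not computed with the longest transcript. STAG2, with 62 to 72 counts per UC3DDP library, had the lowest depth of the 10 genes. The 3 against 3 design cannot give an exact permutation p under 0.10.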
